A study of Mus musculus with 15 samples.

Results

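RAW 264.7 cells, an established mouse macrophage line transformed by Abelson leukemia virus, were given lipopolysaccharide (LPS) together with extracellular vesicles (EVs) from sham mice, and their immune gene expression was profiled in 3 samples. These were all samples whose titles name sham EVs, 3 of the 15 in the series, and every gene of the panel is described in them. The study asked how EVs released after whole-body ionizing radiation act on macrophages. The other samples form 4 groups of 3, given EVs from mice 3 or 7 days after 2 or 9 Gy. All 5 groups received LPS and EVs for 24 hours, the EVs being vesicles isolated from plasma of female C57BL/6J mice. The labels give 30000000 EVs per exposure and lysis in Trizol, and the study's methods give another number and another lysis buffer. No sample analysed here lacked LPS or lacked EVs, so the levels describe cells under both agents and no induction by either can be read from them. The labels do not say whether the 3 samples were separate cultures, and the study's methods say that samples were run in triplicate. The spread between the 3 samples may therefore be technical.

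LPS, a component of the outer membrane of Gram-negative bacteria, is bound by CD14 and sensed by TLR4 with its partner MD-2. The receptor signals through MyD88 to NF-κB, which drives cytokines and chemokines, and through TRIF to interferon regulatory factors, which drive type I interferon and, through it, the interferon-induced genes. Feedback inhibitors such as IκBα, A20 and the SOCS proteins limit both arms.

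In the nanoString nCounter assay, a probe pair with a colored barcode hybridizes to each mRNA and barcodes are counted directly, with no amplification step. The 3 samples held 568097, 729491 and 698741 counts in all. Each gene was read by its own probes, so a high rank is a rank of counts and not strictly of molecules. No count was below 1, and counts of the control probes were not used here, so no background was subtracted. A mean of 20 counts served as a working floor. A single count of 20 has an exact Poisson 95% interval from 12.2 to 30.9, and all intervals given here cover counting error only.

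A mean of at least 20 counts was reached by 284 genes (50.6%), and 277 lay under it. The split depends on the floor, since 394 genes (70.2%) had a mean of at least 10. A mean of at least 100 was reached by 165, of at least 1000 by 49 and of at least 10000 by 10. Of the genes under the floor, 248 were under 20 in every sample. The 277 genes with a mean under 20 held together 0.378%, 0.381% and 0.390% of the counts. A count near or under the floor was not a sign of absence. Polr1b, which encodes a subunit of RNA polymerase I that growing cells need, had 5, 9 and 4 counts, and the tubulin gene Tubb5, just above the floor, had 18, 26 and 24. In the plot of counts against rank, the slope is steep over the first genes and the samples spread apart below the dashed line.

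**Figure D1:**
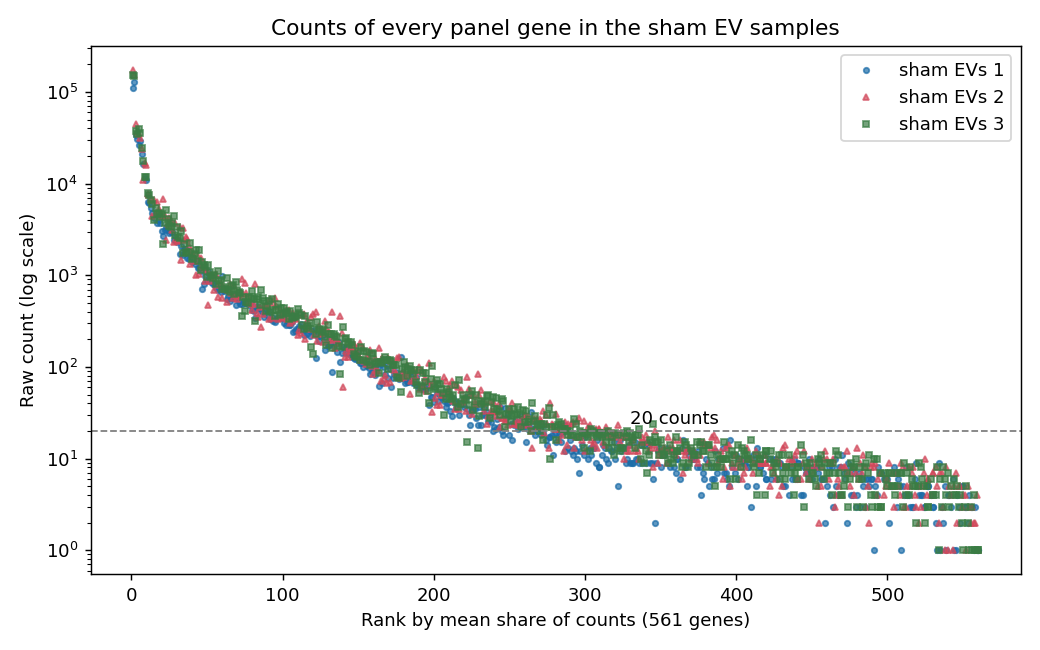
Raw counts (log scale) of all panel genes in each of the 3 sham EV samples against rank by mean share of counts, with a dashed line at 20 counts. Counts run from 1 to 174161, and 284 genes have a mean of at least 20.

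The counts were concentrated in a few chemokine genes. Ccl3 and Ccl5, which encode the chemokines MIP-1α and RANTES, each held over 20% of the counts on average. Ccl3 had 111933, 174161 and 152363 counts, or 21.8% ± 2.09 of the total (SD, n = 3). Ccl5 had 127656, 154831 and 148565 counts, or 21.7% ± 0.709. Ccl5 was the higher of the pair in sample 1 and Ccl3 in samples 2 and 3, so their order was not settled. The 10 most abundant genes held 74.1% ± 0.514 of the counts, and 36 to 40 genes were enough for 90%. The Wilson 95% interval of any share among the 30 most abundant genes was within 0.109 percentage points of the share, well under the spread between samples for Ccl3.

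The genes next in rank were Ccl9 at 5.85% ± 0.393, Gapdh at 5.14% ± 0.178, Ptgs2 at 5.02% ± 0.556 and B2m at 4.85% ± 0.450. Ccl9 encodes another CC chemokine, Ptgs2 the inducible cyclooxygenase and B2m the light chain of MHC class I. Ccl9 lay above Gapdh in every sample, but Gapdh, Ptgs2 and B2m changed places between samples. Rpl19, Il1rn, Cybb and Ccl2 completed the first 10. Of the 30 neighbouring pairs among the most abundant genes, 9 kept one order in all 3 samples. Across samples, 16 genes were among the 20 most abundant every time. Among the first 30, the widest range of ranks was that of Il27, which encodes the p28 subunit of IL-27 and ranked 27, 14 and 35. Cd14 ranked 20, 33 and 16.

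Promoters of 4 abundant genes are shown here, because NF-κB and the interferon-activated factors bind short DNA elements upstream of such genes. They were picked for holding a match, and Ptgs2, Irf7, Tnf and Il1b, with means over 1000 counts as well, held none. Each run is the 250 bases before the start of the gene in RefSeq for GRCm38.p6, read in the direction of the gene. Capitals mark GGNNTTTCC, a spelling of the core of the NF-κB element, or GAAANNGAA, a spelling of the core of the interferon-stimulated response element, on either strand. B2m at chr2:122147437-122147686 (plus strand) and Cxcl10 at chr5:92348890-92349139 (minus strand) hold both, and Ccl9 at chr11:83578637-83578886 (minus strand) and Il6 at chr5:30012864-30013113 (plus strand) hold the first.
B2m: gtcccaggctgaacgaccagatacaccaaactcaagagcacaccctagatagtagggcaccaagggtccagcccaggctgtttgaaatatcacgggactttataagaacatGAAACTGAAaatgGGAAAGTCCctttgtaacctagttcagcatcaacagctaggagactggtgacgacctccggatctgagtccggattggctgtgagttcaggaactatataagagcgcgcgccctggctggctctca
Cxcl10: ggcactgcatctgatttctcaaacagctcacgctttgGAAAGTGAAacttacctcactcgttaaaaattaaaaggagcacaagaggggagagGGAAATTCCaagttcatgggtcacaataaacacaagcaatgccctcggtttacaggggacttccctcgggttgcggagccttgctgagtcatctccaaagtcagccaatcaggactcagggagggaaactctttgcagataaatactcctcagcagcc
Ccl9: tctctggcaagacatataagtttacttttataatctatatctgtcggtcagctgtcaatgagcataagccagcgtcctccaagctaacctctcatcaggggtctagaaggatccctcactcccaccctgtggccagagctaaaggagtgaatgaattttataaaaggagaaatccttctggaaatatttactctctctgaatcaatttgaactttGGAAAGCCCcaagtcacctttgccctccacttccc
Il6: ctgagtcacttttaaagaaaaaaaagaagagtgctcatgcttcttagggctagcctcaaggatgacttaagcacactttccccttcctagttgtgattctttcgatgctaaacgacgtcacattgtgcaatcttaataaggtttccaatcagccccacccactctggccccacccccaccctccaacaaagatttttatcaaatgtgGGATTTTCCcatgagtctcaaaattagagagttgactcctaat

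Of the 49 genes with a mean of 1000 counts or more, 36 had a promoter in the table, and 9 of these (25%) held GGNNTTTCC. The share was 7.87% of 89 genes from 100 to under 1000, 14.3% of 91 genes from 20 to under 100, 9.91% of 212 genes under 20, and 5.62% of 27025 genes in the whole table. The holders among the most abundant genes were B2m, Cxcl10, Ccl9, Il6, Il1rn, Nfkb2, Nfkbia, Cd9 and Oaz1, the last a housekeeping gene. GAAANNGAA was in 9 of the 36 (25%) too, in 5.62%, 12.1% and 12.3% of the lower classes, and in 8.18% of the table. Its holders were B2m, Cxcl10, Nfkbia, Cd9, Bst2, Ctss, Cybb, Tnfrsf1b and Ccl3.

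Other spellings of the NF-κB element were counted earlier. With a further G in front, 19.4% of the most abundant genes matched, against 1.65% of the table. With the 5 bases between 3 G and 2 C left free, 75% matched, against 48.7% of the table. The panel was chosen for immune genes, a match describes letters and not a bound site, and no test was made.

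The macrophage label was borne out by its markers. Of 15 measured macrophage genes, 14 had a mean of at least 20 counts, and together they held 1.99% to 3.01% of the counts. Fcer1g, the shared signaling chain of Fc receptors, had 4838, 4433 and 6055 counts, and Tyrobp, its relative DAP12, had 3000, 3143 and 3711. Emr1, which encodes the F4/80 antigen, had 1381, 1850 and 1505. The M-CSF receptor gene Csf1r was low, at 20, 33 and 47 counts, and Cd48, at 8, 10 and 10, was the one gene of this list under the floor.

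Markers of other cells were mostly under the floor. Of 39 T lymphocyte genes 6 reached a mean of 20, and the list held 0.0789% to 0.0853% of the counts. Its mean share of 0.0829% fell to 0.0229% after 20 counts were subtracted. Its highest gene was Cd8a, at 82, 125 and 108 counts. Of 17 B lymphocyte genes 5 reached it, led by the adaptor gene Blnk at 111, 181 and 119, and of 25 NK and cytotoxic genes 3 did, led by Slamf7 at 245, 351 and 167. Blnk and Slamf7 are expressed in macrophages too. Of 10 platelet and endothelial genes, only Plaur reached 20 counts, and it is also a macrophage gene. Since no sample lacked EVs, RNA carried by the plasma EVs cannot be told apart from RNA of the cells. The platelet genes Itga2b, Gp1bb and Ppbp had means of 6, 5 and 6.33 counts.

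**Figure D2:**
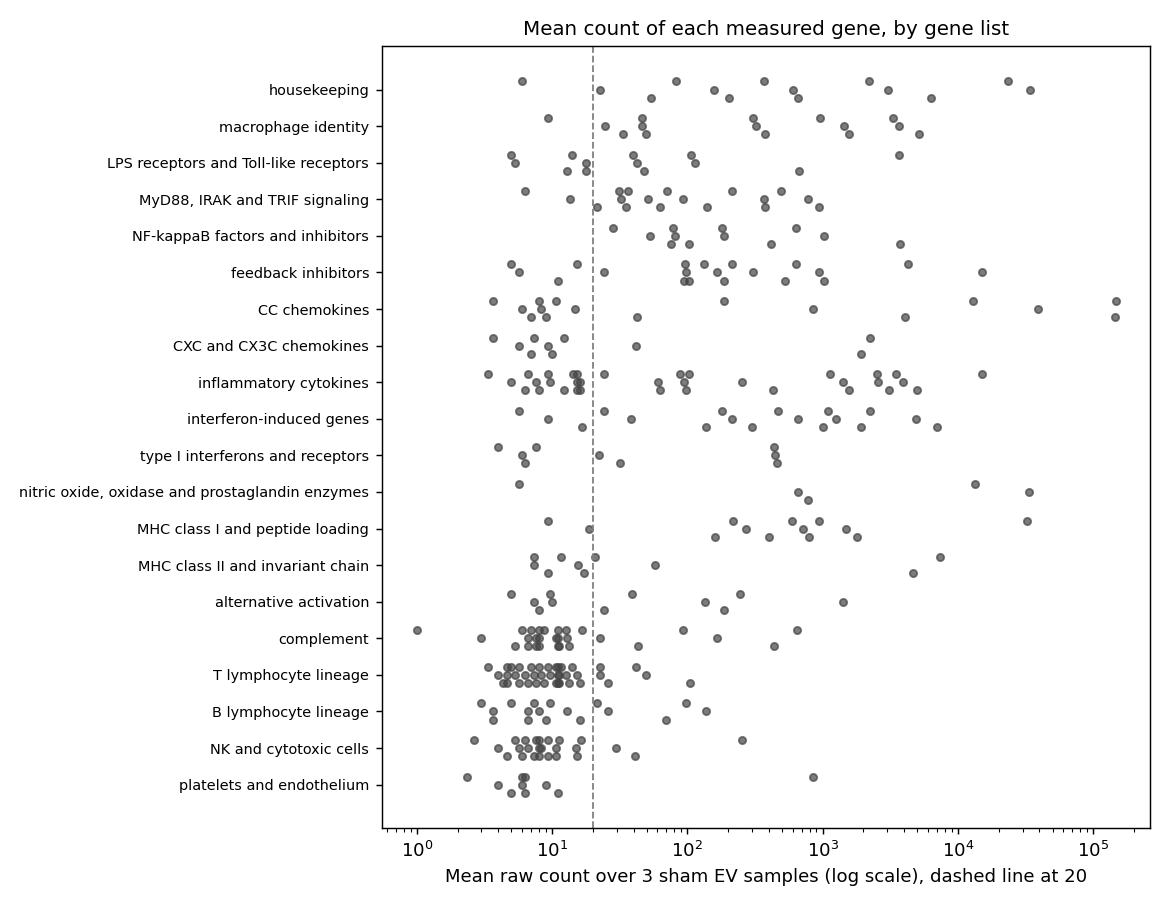
Mean raw count over the 3 sham EV samples (log scale) of each measured gene, 1 point per gene, in 20 gene lists, with a dashed line at 20 counts. Points of the NF-κB list all lie right of the line, while 33 of 39 T lymphocyte genes lie left of it.

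In the sensing and signaling steps of the LPS pathway, Cd14 was abundant and Tlr4 was near the floor. Of 13 receptor genes 7 reached a mean of 20. Cd14 had 3328, 2438 and 5221 counts, against 33, 31 and 54 for Tlr4. Ly96, which encodes MD-2, had 98, 83 and 137, and Tlr2, the receptor for bacterial lipoproteins, had 83, 154 and 104. The count of Cd14 was 78.6 to 101 times that of Tlr4 in the same sample. Below the receptors, 16 of 18 adaptor and kinase genes reached 20 counts, led by Tollip, Irak2 and Ikbke. Myd88, the shared adaptor, had 58, 91 and 62 counts.

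All 12 NF-κB genes reached the floor. Nfkb2, which encodes the p100 precursor of the noncanonical pathway, had 3159, 4430 and 3688 counts. It stood at 44.4 to 47.6 times the count of Rela, the main transactivating subunit, and at 7.74 to 10.3 times that of Nfkb1. Among the feedback inhibitors, 16 of 20 reached 20 counts. Nfkbia, which encodes IκBα, had 978, 868 and 1242 counts, and Tnfaip3, which encodes A20, had 144, 199 and 214. The SOCS genes, which inhibit cytokine receptors, lay apart, with 164, 60 and 272 counts for Socs3 and 8, 6 and 3 for Socs1.

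Of 34 inflammatory cytokine genes, 19 reached 20 counts, and the list held 5.90% to 6.57% of the total. Its most abundant gene encodes an antagonist. Il1rn, the IL-1 receptor antagonist, had 16573, 10900 and 17733 counts, and Il1b had 4188, 6682 and 4038. Il1rn was higher than Il1b in each sample, by 3.96, 1.63 and 4.39 times. Il6 had 2427, 2290 and 4483 counts and Tnf had 1723, 3387 and 2569. Both were far above Il10, an anti-inflammatory cytokine, at 32, 20 and 20. In the IL-12 family, Il27 and its partner Ebi3 had means of 3897 and 2506 counts. Il23a had 126, 399 and 230, Il12b had 76, 77 and 113, and Il12a had 9, 21 and 18.

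CC chemokines held most of the counts, at 50.8%, 54.2% and 51.0%, yet 8 of 16 measured genes were under the floor. Ccl4, which encodes MIP-1β and lies beside Ccl3 in the genome, had 3034, 4434 and 4670 counts. The count of Ccl3 was 32.6 to 39.3 times that of Ccl4, and each comes from its own probe. Ccl2, a monocyte attractant, had 10989, 15906 and 11907. Among 10 CXC and CX3C chemokines, the CXCR3 ligands Cxcl11 and Cxcl10 had means of 2237 and 1936 counts, while the third CXCR3 ligand, Cxcl9, had 10, 8 and 10. The neutrophil attractant Cxcl1 had 5, 10 and 7.

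In the interferon arm, the ligand gene was near the floor while most interferon-induced genes were above it. Ifnb1, which encodes interferon-β, had 17, 40 and 10 counts. Of 18 interferon-induced genes, 15 reached the floor, and together they held 3.15% to 3.29% of the counts. Bst2, which encodes tetherin, had 6088, 7436 and 7518 counts, and Irf7, which encodes the factor that amplifies interferon production, had 4653, 4655 and 5406. Ifit2 and the RNA sensor gene Ddx58 had means of 1263 and 998. Mx1, another interferon-induced gene, had 37, 49 and 29.

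The effector genes were led by Ptgs2, with 26237, 34848 and 39480 counts, and Cybb, which encodes the catalytic subunit of the phagocyte oxidase, with 11443, 16644 and 11883. Nos2, the inducible nitric oxide synthase, had 599, 688 and 686. For antigen presentation, 11 of 13 class I genes but 4 of 10 class II genes reached 20 counts. The class II list was carried by Cd74, which encodes the invariant chain, with a mean of 7349 counts, and by the protease gene Ctss, with 4688. The class II chain genes H2-Aa, H2-Ab1 and H2-Eb1 had means of 11.7, 7.33 and 17.3, and Ciita, their transactivator, had 15.7. Of 11 genes of alternative activation 6 reached the floor, and Cd163 and Pparg had means of 9.67 and 7.33. Of 28 complement genes 6 reached it, with C1qbp, a binding protein of C1q, the highest, at 565, 762 and 625.

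To compare the samples with each other, each sample was divided by the geometric mean count of its 14 housekeeping genes, and the coefficient of variation (CV, the SD as a percent of the mean) was taken over the 3 samples. Of the 14, 10 averaged at least 100 counts and 1, with a mean of 6, lay under the floor, so low counts enter the scale. The median CV was 15.8% over the 284 genes above the floor and 14.1% over the 165 that averaged 100 counts or more. In the latter, the CV that counting error alone gives had a median of 4.64%. The measured CV was above it in 153 genes, which is a count and not a test, since 3 samples give a rough CV. A CV over 20% was seen in 53 of these 165 genes. Leaving out sample 2 lowered the median over the 284 genes to 8.44%, against 16.4% without sample 1 and 14.2% without sample 3.

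**Figure D3:**
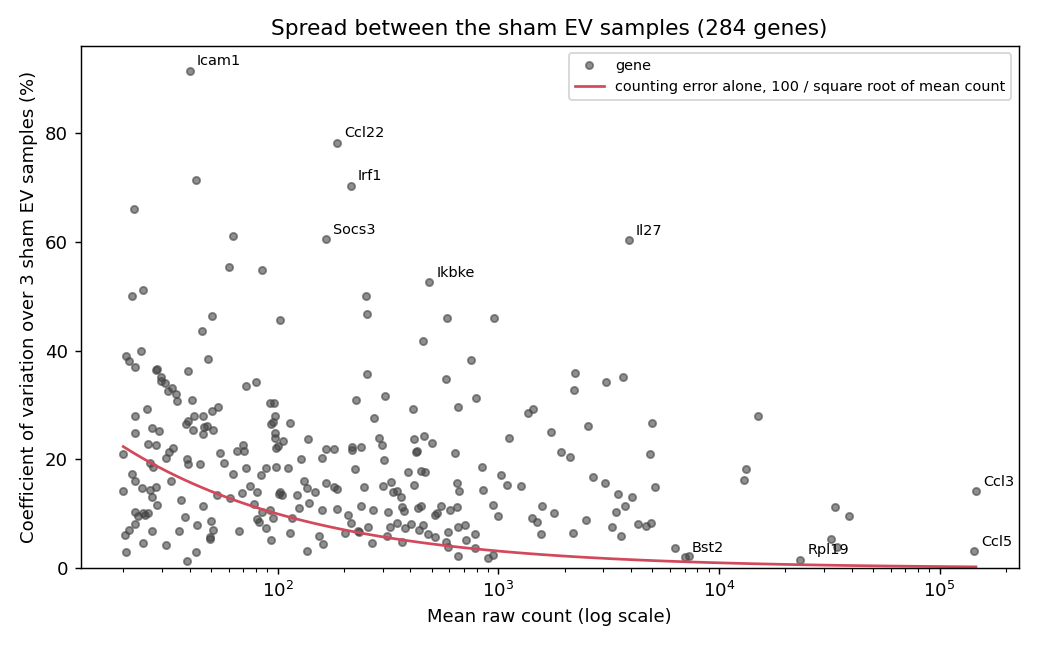
CV over the 3 sham EV samples (housekeeping scale) against mean raw count (log scale) for 284 genes, with the line that counting error alone would give. Ccl5, Bst2 and Rpl19 lie near the foot of the plot, and Il27, with a CV of 60.2%, lies far above the line.

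The most even genes among the 165 were Rpl19, a ribosomal protein gene and 1 of the 14 used for scaling, with a CV of 1.59%, Cd44, Bst2, Cd74, Nos2, H2-K1, Ccl5, Stat6, Eef1g and Ncf4, all at 3.71% or less. Eef1g was used for scaling too, which bears on the evenness of both genes. Cd44, Nos2, H2-K1 and Stat6 had CVs under those that counting error alone gives, so their place among the most even genes is not firm. For Stat6 the values were 3.13% and 8.57%. Ccl5 had normalized counts of 143087, 147796 and 138852. Ccl3, with nearly the same count as Ccl5, had a CV of 14.2%, and a relation of CV to abundance was not tested.

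The most variable genes were Ccl22, Irf1, Socs3, Il27, Ikbke, Il23a, Itgal, Cd40, Fcgr1 and Csf1, with CVs from 78.2% to 45.6%. Ccl22, a ligand of CCR4, had normalized counts of 127, 347 and 77.6. Irf1, an interferon regulatory factor gene, had 99.8, 376 and 151, and Il27 had 3043, 6477 and 2049. Sample 2 was the highest in 8 of the 10 genes and the lowest in the other two, Socs3 at 184, 57.3 and 254 and the high-affinity IgG receptor gene Fcgr1 at 1239, 454 and 1213.

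Samples 2 and 3 formed the ends of this spread. Sample 1 held the middle value in 99 of the 165 genes, sample 3 in 41 and sample 2 in 25. Samples 2 and 3 differed at least 2 times in 12 genes. Sample 2 was the higher in 8 of them, namely Ccl22, Il27, Itgal, Ikbke, Cd40, Irf1, Slamf7 and Itga5. Sample 3 was the higher in Socs3, Fcgr1, Cd36 and Cd14. The first set holds a chemokine, a cytokine subunit, a costimulatory receptor and integrin chains, and the second holds receptors for LPS, IgG and lipids and an inhibitor of cytokine signaling. The scaling was balanced, with 81 genes higher in sample 2, 84 higher in sample 3 and a median log2 ratio of -0.01.

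By gene list, with genes of at least 100 counts, 7 of 9 macrophage identity genes and 9 of 12 feedback inhibitors were lower in sample 2 than in sample 3, with median log2 ratios of -0.42 and -0.36. Of 13 inflammatory cytokines 9 were higher in sample 2, with a median of 0.33, and of 10 integrin and adhesion genes 8 were, with a median of 0.31. These 4 of the 29 lists were picked after their values were seen. Of the others, 4 of 6 inflammasome and cell death genes (median -0.32) and 5 of 7 Fc, scavenger and lectin receptors (median -0.42) were lower in sample 2, 9 of 13 interferon-induced genes were higher (median 0.15), and 2 of 4 LPS and Toll-like receptor genes lay on each side. The lists overlap, and one pair of samples allows no test.

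The same order of genes returned in other samples. For each of the 165 genes the log2 deviation of a sample from its group mean was taken, and deviations were compared across genes, which is not affected by the scaling of a sample. Replicate 1 of the 2 Gy day 3 group and replicate 1 of the 2 Gy day 7 group deviated as sham sample 3 did (r = 0.89 and 0.92), and opposite to sham sample 2 (r = -0.79 and -0.88). Replicates 2 and 3 of both 2 Gy groups deviated with sham sample 2, with r from 0.67 to 0.79. The 9 Gy samples showed correlations from -0.42 to 0.44 with the sham samples, and those of day 3, of which 2 carry a conflicting day label, held only 43176 to 87899 counts in all. These are descriptions over 165 genes, which are not independent, and the 3 deviations within a group sum to 0. What the samples at either end share was not tested, and the labels name no batch.

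**Figure D4:**
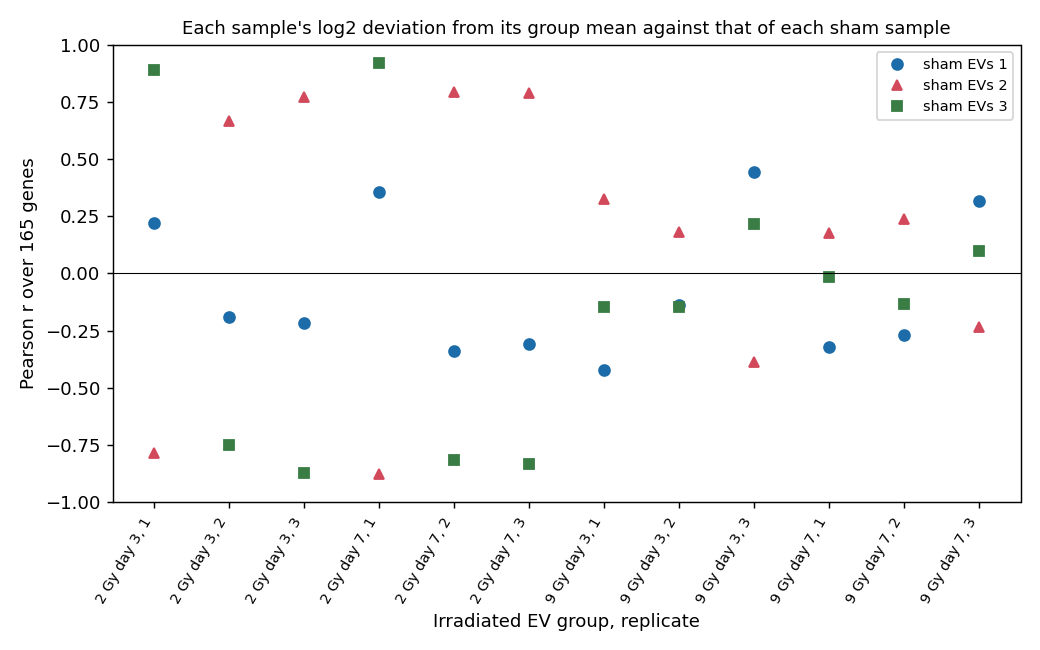
Pearson r over 165 genes between the log2 deviation of each irradiated EV sample from its group mean and that of each sham EV sample. In both 2 Gy groups, replicate 1 sits near sham sample 3 (r of 0.89 and 0.92) and replicates 2 and 3 sit on the side of sham sample 2.

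All 12 genes that parted sham samples 2 and 3 showed this in both 2 Gy groups, where replicate 1 lay beyond both other replicates on the side of sham sample 3. Over all 165 genes, the same held for 129 (78.2%) at day 3 and 127 (77.0%) at day 7. Il27 had normalized counts of 1925, 4364 and 4831 in the 2 Gy day 3 group and 2798, 6508 and 6848 in the day 7 group. Socs3 had 142, 56.6 and 61.2, and then 155, 58.0 and 72.4. In both groups replicate 1 was thus the lowest for Il27 and the highest for Socs3. The median CV over the 165 genes was 10.8% and 11.5% in the 2 Gy groups, against 14.1% in the sham group.

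**Figure D5:**
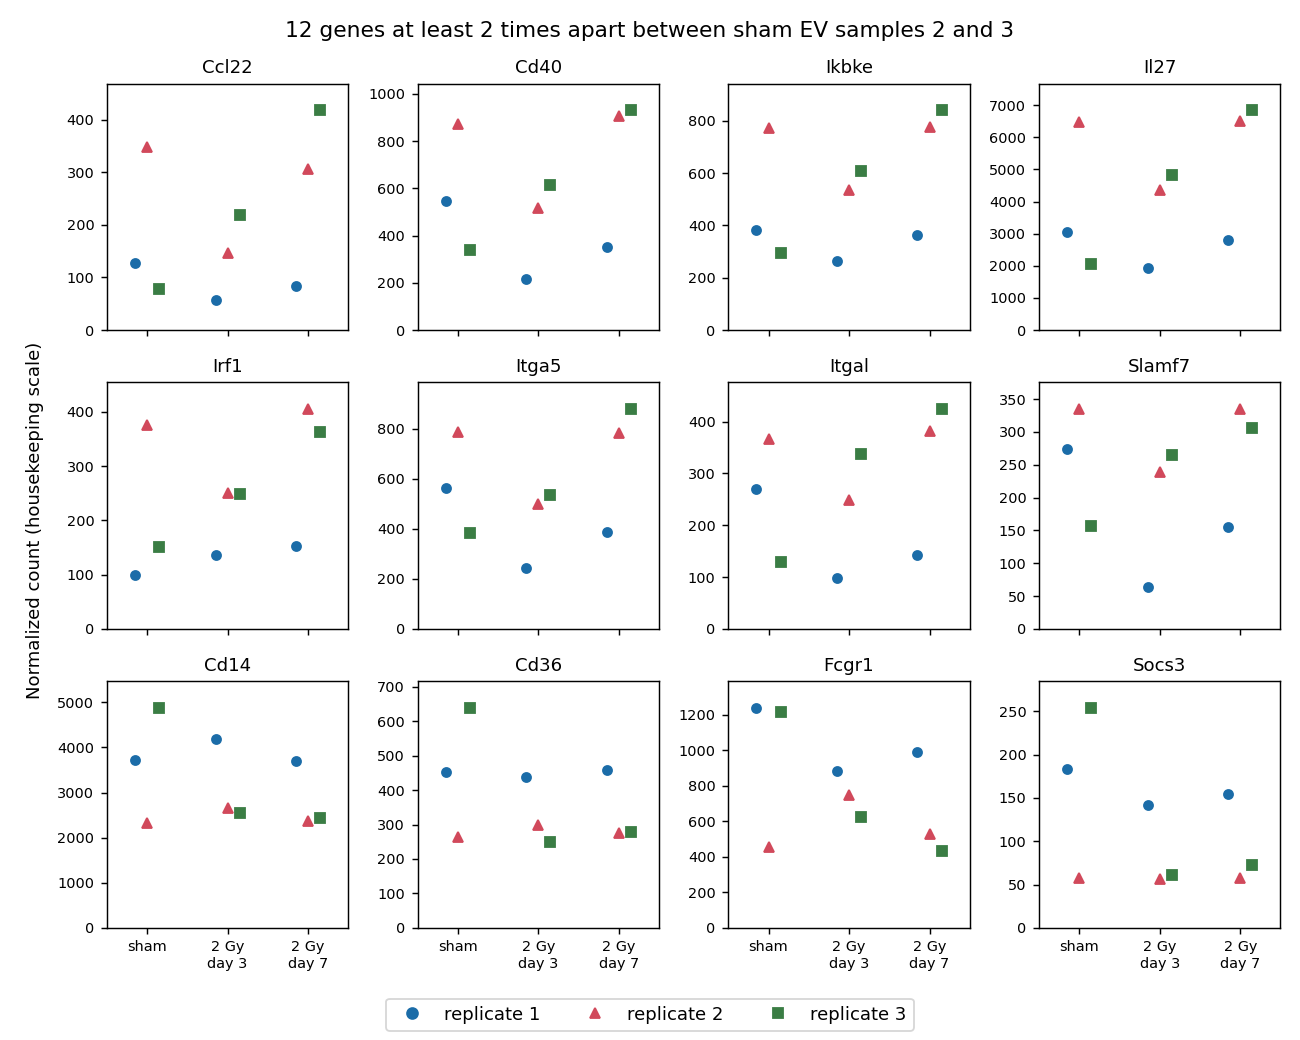
Normalized counts (housekeeping scale) of the 12 genes at least 2 times apart between sham EV samples 2 and 3, in the 9 sham and 2 Gy samples, with 1 marker per replicate. For every gene, replicate 1 lies beyond both other replicates in both 2 Gy groups, and sample 2 is at the end of the range of the sham group.

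The sham samples were then compared with the 6 samples given 2 Gy EVs. With edgeR's quasi-likelihood test on all 15 samples, 0 of 269 genes (0%) passed an adjusted p of 0.05, and 4 had an unadjusted p under 0.05. DESeq2 also called 0, with 8 unadjusted. Among the 269 genes tested, the sham samples lay above all 6 others in 2, Jak3 and Cd274. They lay below all 6 in 3, H2-Ob, Ifi35 and Irak3. None of these genes passed the threshold, and how many genes order alone would set apart was not worked out. The lowest p belonged to H2-Ob, a chain of the class II chaperone H2-O, near the floor at 20.6 ± 0.629 normalized counts in the sham group, 32.8 ± 2.72 in the 2 Gy day 3 group and 28.2 ± 5.04 in the day 7 group (SD, n = 3 each). Its log2 difference, sham minus 2 Gy, was -0.55 (SE 0.17, adjusted p = 0.944 by edgeR). Next came Nfkbia at 0.36 (SE 0.12), Ski at 0.51 (SE 0.20), Ctnnb1 at 0.34 (SE 0.14) and Xbp1 at 0.34 (SE 0.16), each with the same adjusted p. Leaving out sham sample 3 gave 0.14 for Ctnnb1 and 0.08 for Xbp1, and leaving out sham sample 2 gave 0.49 and 0.52. Missing the threshold does not show that the levels were equal. Without sham sample 2, 32 genes had an unadjusted p under 0.05 and still 0 passed.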

How the data were processed

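RNA from LPS-treated RAW 264.7 cells was hybridized to the nanoString Mouse Immunology panel. The authors deposited raw counts for each panel gene in 15 samples, as whole numbers, and normalized them later in nSolver, whose values were not used here. Samples were grouped by title. The members and the 29 gene lists were chosen with earlier results of these data known. Total counts were 568097 to 729491 in the sham samples.

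Shares, ranks and CVs were computed from these counts in Python 3.11.15. The named genes were the 30 of highest share, the housekeeping genes, list members with a mean of at least 20 counts, the 10 highest and 10 lowest CVs among genes with at least 100, and the 5 lowest p-values in the comparison. Others, such as genes under the floor, were picked after their values were seen. Symbols matched RefSeq (GRCm38.p6) for 545 genes, as older symbols for 14 and not for 2.

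The sham group was compared with the mean of both 2 Gy groups by edgeR 4.0.16 quasi-likelihood in R 4.3.3, fitted to 5 groups, with housekeeping scaling, a mean of at least 20 counts over 15 samples, a prior count of 0.125 and Benjamini-Hochberg adjustment. DESeq2 1.42.0 was an alternative. Replicates 1 and 2 titled 9 Gy day 3 carry another day label, which bears on the shared estimate of spread and on the deviations of the 9 Gy samples. The fit was tested on simulated data.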

Additional observations from a re-analysis of the deposited data

How the results depend on the processing

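The count of genes that differed from the 2 Gy groups was 0 under every alternative run, including TMM, total-count and DESeq2 scaling, DESeq2, no filter, and each sham or 2 Gy sample left out (0 to 0), while no 9 Gy sample was left out singly. Unadjusted p-values under 0.05 numbered 2 to 32 when 1 sample was left out, with 32 without sham replicate 2, 11 without 2 Gy day 7 replicate 1 and 8 without 2 Gy day 3 replicate 1. They numbered 21 with no filter, 12 with total counts and 13 with only the sham and 2 Gy groups in the fit. With the replicate number as a replicate block, 0 genes were called (6 unadjusted), and 0 with the block in those groups alone (18 unadjusted). Deviations of same-numbered samples correlated between the 2 Gy groups (r = 0.86, 0.69 and 0.80) and between sham replicates 1 and 2 and those groups (0.21 to 0.81), but sham replicate 3 went against both (r = -0.88 and -0.86), so the numbers were not taken to pair sham with 2 Gy samples. The floor count of 284 was 277 to 295 with 1 sample left out, 394 at a mean of at least 10 and 165 at a mean of at least 100. The share of the 10 highest genes was 75.7% without housekeeping genes in the total, 68.3% without Ccl3 and 74.98% after subtracting 20 counts, and that of the 2 highest was 48.7% and 35.3% for the first and second of these. The CC chemokine share of 52.0% was 58.3% without housekeeping genes and 50.9% to 52.6% with 1 sample left out. With 1 sample left out the other shares ran from 73.8% to 74.3% and from 42.6% to 44.1%. The median CV of 15.8% was 16.8% with total counts, 16.3% with TMM, 15.9% with the median of the genes, 14.1% at a mean of at least 100 and 16.2% with housekeeping genes of at least 100 counts, chosen after seeing the data. Leaving out 1 sample gave 8.44% to 16.4%, and 61 to 126 genes with a CV over 20%, against 116 with all and 53 at a mean of at least 100. The low values are those without sham replicate 2.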
